A study of Mus musculus with 6 samples.

Results

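The mitotic spindle and checkpoint genes are 50 mouse genes whose products carry a cell through mitosis. They were picked by their GENCODE M21 symbols from the 32110 genes of each library and arranged here by role in 7 groups. All 50 were measured and all passed the filter on low values, which kept genes averaging 0.5 FPKM or more. FPKM counts sequenced fragments relative to transcript length and to the number of fragments mapped in a library, so levels of different genes can be set side by side. Bulk RNA-seq was run on CT26 tumors, a BALB/c mouse colon carcinoma line that had been injected intradermally into the right flank of male BALB/c mice and left to reach a longest diameter of about 0.8 cm. In the iRFA group (incomplete radiofrequency ablation, n = 3) the electrode tip was brought to the midpoint of the tumor, which was held for 1.5 to 2.0 min at a target of 70 °C to kill a portion of it, and the residual tumor was taken 3 days later. The untreated group (n = 3) received no treatment. All the mice are labelled wild type, the tumors of each group were sequenced as 3 libraries, and the labels do not say whether necrotic tissue was left out of the RNA.

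In mitosis, CDK1 bound to a cyclin B starts the condensation of chromosomes and the building of the spindle, and Aurora and Polo-like kinases direct the attachment of microtubules to kinetochores. The spindle checkpoint holds the anaphase-promoting complex inactive until every kinetochore is attached. CDC20 then activates that complex, which marks cyclin B and securin for destruction, so that separase can open cohesin, chromosomes part and the cell divides. Most of these genes are transcribed late in the cell cycle, and for many of them this timing rests on a short promoter element, the CHR, which the DREAM and MYB-MuvB complexes bind, and on CCAAT boxes bound by NF-Y. The mRNAs are commonly read as a measure of how many cells of a tissue are dividing.

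The library labelled untreated replicate 3 stood apart from its group, and whether that label is right was not tested. The label was kept, so every untreated mean and every difference over all 6 libraries includes it. Over the tested genes it correlated with the iRFA libraries at a Pearson's r of 0.983 to 0.987 and with untreated replicates 1 and 2 at 0.807 and 0.801, whereas these last correlated with each other at 0.983. Several lists of markers of other cells split the libraries likewise. The 12 simple epithelium markers summed to 727 and 683 FPKM in untreated replicates 1 and 2, to 1.82 FPKM in untreated replicate 3, where Krt18, Krt19, Krt20, Cldn4 and Cdx2 were at 0, and to 2.46 to 3.38 FPKM in the iRFA libraries, that is, near 0 in these last 4 libraries. Whether CT26 cells carry these markers is not given in the sources used here. The 10 fibroblast markers summed to 3423 and 4028 FPKM against 574 and 516 to 819 FPKM, the 15 skeletal muscle markers to 249 and 296 FPKM against 3.85 and 45.2 to 71.4 FPKM, the 12 keratinocyte markers to 112 and 413 FPKM against 9.81 and 7.70 to 13.9 FPKM, and the 12 macrophage markers to 1594 and 1582 FPKM against 3090 and 3406 to 3794 FPKM. The 12 T cell markers summed to 58.0 and 59.6 FPKM against 23.8 and 25.8 to 43.2 FPKM, the 10 endothelial markers to 74.6 and 67.4 FPKM against 57.0 and 44.4 to 59.2 FPKM, and the 7 B and plasma cell markers to 6.27 and 6.96 FPKM against 3.26 and 2.63 to 5.22 FPKM. The 7 erythroid markers did not split this way, with 35.4 and 48.4 FPKM against 81.6 and 43.4 to 91.1 FPKM. The skeletal muscle markers also set untreated replicate 3 below the iRFA libraries, with 7 of the 15 at 0 there alone. The part of all these marker lists in the results on mitotic genes was not tested. The comparison over all members is therefore given with all 6 libraries, and beside it without untreated replicate 3. In the role groups, ratios are to the mean of untreated replicates 1 and 2 and so leave it out. For some genes of other lists, only the difference without it is given. Untreated replicate 3 was picked out by its values. Ratios and p-values without it therefore describe the other 5 libraries and are no independent test of iRFA. The depth of the libraries is unknown, and steps between low values place it within 1 to 1.10 times that of untreated replicate 1.

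With all 6 libraries, no member passed the test. The log2 difference between iRFA and untreated tumors, on the log2(FPKM + 1) scale, was positive for 48 of the 50 members and negative for Pttg1 and Kif18a, with a median of 0.73 against 0.02 over the 15560 genes tested, of which 51.9% were positive. The adjusted p-values of the members ran from 0.25 to 0.5 (limma, Benjamini-Hochberg over all genes tested), and 0.0% of all tested genes were called in either direction. At an unadjusted limma p under 0.05 there were 2 members, Bub3 at 0.0118 and Kif20a at 0.0405, beside 7.94% of all genes in the higher direction and 6.75% in the lower. Every iRFA library lay above every untreated library for 3 members, Bub3, Kif20a and Smc2, which is 6.0% of the members beside 11.4% of all tested genes. No member lay below throughout, beside 10.5% of all genes. By role group, the median log2 difference with all 6 libraries ran from 0.45 (centromere and kinetochore) to 0.90 (Aurora kinases and passenger complex).

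Without untreated replicate 3, 48 members were higher in the iRFA tumors, 1 was lower (Pttg1) and 1 was not called (Kif18a, adjusted p = 0.257 by limma). Groups without overlap were then seen for 48 members in the higher direction (41.0% of all genes) and 1 in the lower (36.5% of all genes). The background was broad, with 33.9% of all tested genes called higher and 30.3% called lower, against 96.0% of the members called higher. The median log2 difference of the members was 1.11, with a range from -0.69 to 1.95, against 0.04 over all genes. In FPKM, the mean of the iRFA libraries was at least 3 times the mean of untreated replicates 1 and 2 for 13 members and at least 2 times for 35, or 70.0% beside 12.2% of all tested genes. Set against untreated replicate 3 alone, whose spread was assumed to be that of the iRFA libraries, no member was called, 43 of the 50 log2 differences were negative, and their median was -0.08. In that comparison 0.00643% of all genes were called higher and 0.0% lower. Of the 15560 tested genes, 7943 had a negative log2 difference against untreated replicate 3 alone, and the median over all of them was -0.004. So 48 members were lower in untreated replicates 1 and 2 than in each of the other 4 libraries. Pttg1 ran the other way, and Kif18a did not divide the libraries. In a bulk sample, fewer dividing cells and less of these mRNAs per cell cannot be told apart.

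**Figure D1:**
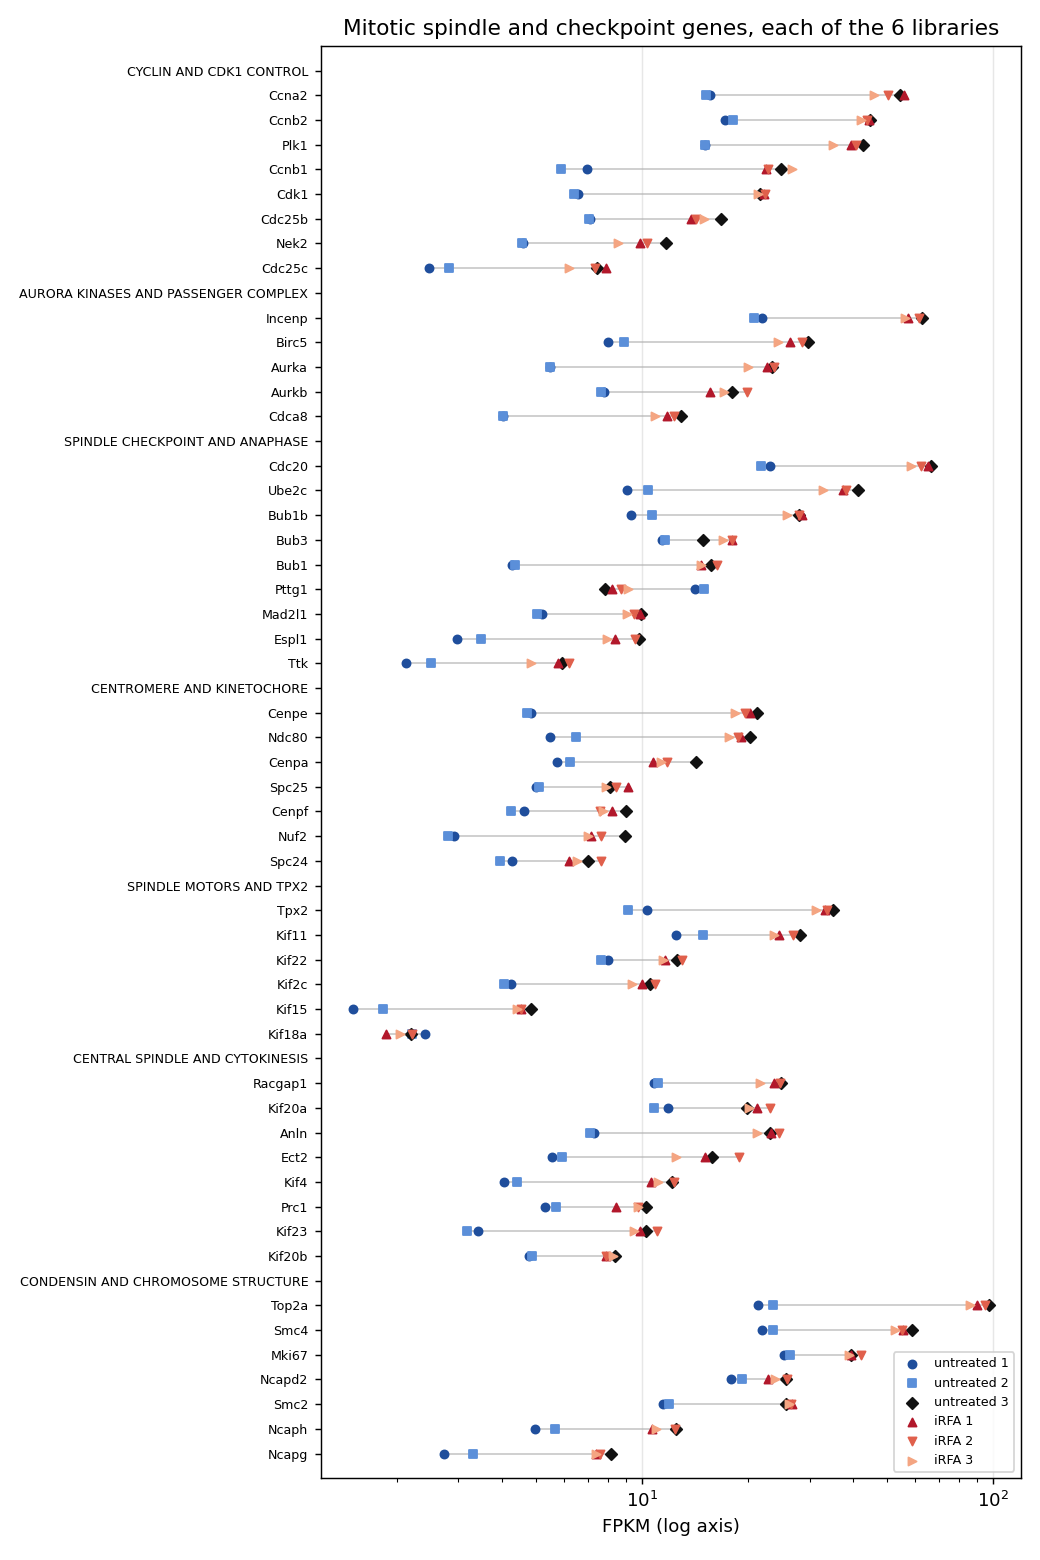
FPKM of each of the 50 mitotic members on a log axis, 1 symbol per library, with the members under their role (capital headings) in order of mean FPKM and a grey line over their range. Untreated replicates 1 and 2 (blue) lie left of the other 4 libraries for every member but Pttg1, where they lie right, and Kif18a, where the libraries mix.

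**Figure D2:**
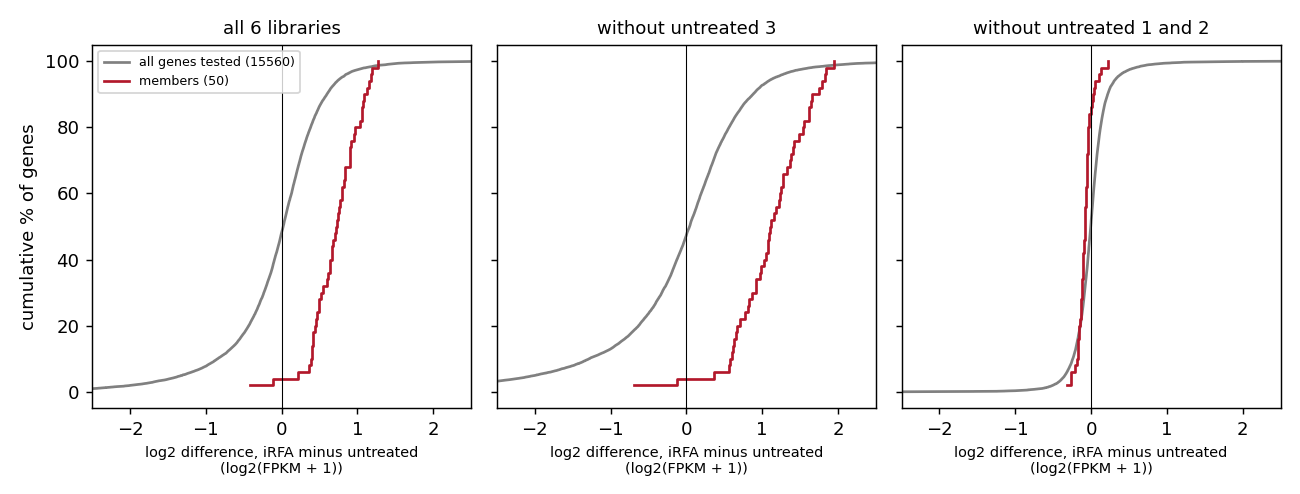
Cumulative share of genes by log2 difference, iRFA minus untreated, for the 50 members (red) and the 15560 tested genes (grey), in the comparison of all 6 libraries, without untreated replicate 3, and without untreated replicates 1 and 2. The member medians are 0.73, 1.11 and -0.08 in these comparisons, and the x axis is limited to 2.5 on either side.

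The promoters of 7 members are shown first. Top2a, Ube2c, Cdc20, Ccnb2 and Cdk1, all above the median difference, were chosen because they hold elements that late cell cycle genes share, and Pttg1 and Kif18a because their levels did not follow those of the other members. Each runs from 120 bases before the start site to 30 bases into the transcript on the strand of the gene (RefSeq, GRCm38.p6). Capitals mark the CHR (TTTGAA, or TTCAAA on the other strand), its variant (TTCGAA, the same on either strand) and the CCAAT box (CCAAT or ATTGG). The stretches are chr11:99024160-99024309 (Top2a, minus strand), chr2:164769809-164769958 (Ube2c, plus), chr4:118437314-118437463 (Cdc20, minus), chr9:70421525-70421674 (Ccnb2, minus), chr10:69352883-69353032 (Cdk1, minus), chr11:43425952-43426101 (Pttg1, minus) and chr2:109280618-109280767 (Kif18a, plus).
Top2a: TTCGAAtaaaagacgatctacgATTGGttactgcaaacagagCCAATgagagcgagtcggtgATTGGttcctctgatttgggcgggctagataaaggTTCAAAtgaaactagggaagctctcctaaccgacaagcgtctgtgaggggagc
Ube2c: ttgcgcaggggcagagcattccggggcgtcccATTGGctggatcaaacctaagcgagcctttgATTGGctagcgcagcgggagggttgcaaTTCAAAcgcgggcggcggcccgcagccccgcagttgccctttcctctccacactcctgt
Cdc20: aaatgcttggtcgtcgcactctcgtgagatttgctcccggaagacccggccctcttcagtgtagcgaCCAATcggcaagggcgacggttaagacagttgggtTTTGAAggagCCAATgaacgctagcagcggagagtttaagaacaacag
Ccnb2: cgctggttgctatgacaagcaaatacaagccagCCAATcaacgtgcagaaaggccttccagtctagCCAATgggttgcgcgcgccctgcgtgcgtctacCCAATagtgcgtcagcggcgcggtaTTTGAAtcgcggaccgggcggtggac
Cdk1: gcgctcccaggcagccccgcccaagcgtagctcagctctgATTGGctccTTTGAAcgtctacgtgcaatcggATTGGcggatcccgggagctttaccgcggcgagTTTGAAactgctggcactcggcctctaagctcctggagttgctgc
Pttg1: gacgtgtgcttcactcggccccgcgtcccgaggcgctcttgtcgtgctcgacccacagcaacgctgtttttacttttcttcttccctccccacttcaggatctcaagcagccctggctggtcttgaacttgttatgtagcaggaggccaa
Kif18a: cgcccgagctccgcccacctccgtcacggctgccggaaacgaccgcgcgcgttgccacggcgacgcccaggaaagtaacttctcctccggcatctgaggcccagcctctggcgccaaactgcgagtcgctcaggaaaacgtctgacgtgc

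In these letters the CHR lies 23 bases before the start site in Top2a, 29 before in Ube2c, 18 before in Cdc20 and 4 after in Ccnb2, while Cdk1 has it at 71 and 15 bases before. Upstream of it Ube2c has CCAAT boxes at 88 and 57 bases before the start, Ccnb2 at 87, 54 and 21, and Top2a at 98, 78 and 58. Cdk1 has them at 80 and 48, the latter lying between its CHRs. Cdc20 has a box at 53 bases before the start, upstream of its CHR, and another at 8, downstream of it. Pttg1 and Kif18a show no capitals. The RefSeq start used for Pttg1 lies inside its GENCODE gene, which on this minus strand begins at 43426251. The sequence before that GENCODE start was not searched for Pttg1. A match is only a string of letters and not a bound site.

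RefSeq windows from 250 bases before to 50 after the start were matched for 42 of the 50 members (45 windows, some genes having more than 1 start). The unmatched members are Ccna2, Cdc25c, Aurkb, Incenp, Spc24, Tpx2, Kif20a and Smc4. A CHR was found in 34 of the 45 windows (75.6%) against 17.9% of all 32851 windows of the same length, and a CCAAT box in 34 (75.6%) against 37.4%. The variant was found in 8.89% against 1.56%. A CHR and a CCAAT box stood together in 64.4% of the windows of the members and in 6.95% of all windows. Position separated the members further, with a CHR within 50 bases of the start in 66.7% of their windows against 4.94% of all, and a CCAAT box there in 48.9% against 13.6%.

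The members with none of the 3 strings in the window were Birc5, Kif18a, Mad2l1, Ncaph, Nuf2 and Pttg1, the window of Pttg1 lying within its annotated gene. They include Birc5 and Nuf2, whose mean in the iRFA libraries was 3.13 and 2.54 times the mean of untreated replicates 1 and 2. The median of this ratio was 2.48 for the 31 members with a CHR and 2.15 for the 11 matched members without 1, a description with no test. In other lists of cell cycle genes the CHR was found in 38.8% of the windows of other mitotic genes, 41.7% of those of G2/M gene regulators and 19.0% of those of DNA replication genes.

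**Figure D3:**
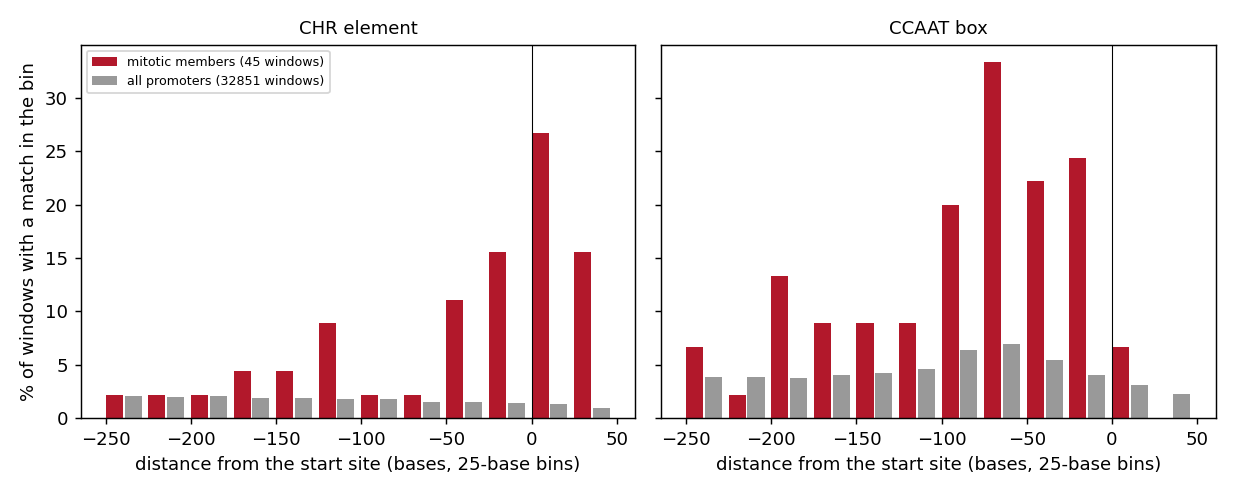
Share of promoter windows with a match in each 25-base bin, by distance of the match from the start site (0), for the 45 windows of the members (red) and all 32851 windows (grey), with the CHR on the left and the CCAAT box on the right. For the members the CHR is most frequent in the first 25 bases of the transcript, at 26.7% of windows, and the CCAAT box from 75 to 51 bases before the start, at 33.3%.

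The cyclins and the enzymes that control CDK1 made up 8 members, all of them at least 2.02 times higher in the iRFA mean than in the mean of untreated replicates 1 and 2, with a median of 2.61 times. Ccna2, the cyclin of S phase and early mitosis, was at 15.6, 15.2 and 54.3 FPKM in untreated replicates 1 to 3 and at 55.7, 50.3 and 45.7 FPKM in the iRFA libraries. Ccnb1, a cyclin B, was at 6.97, 5.88 and 24.9 FPKM against 22.6, 22.9 and 26.8 FPKM. Ccnb2, the other main cyclin B, was at 17.2, 18.2 and 44.6 FPKM against 44.3, 43.8 and 42.0 FPKM. In each of these cyclins the groups overlapped, because untreated replicate 3 was as high as the iRFA libraries. Plk1, the Polo-like kinase of mitotic entry and spindle assembly, was at 15.1, 15.1 and 42.7 FPKM against 39.4, 40.6 and 34.9 FPKM. Cdk1, the kinase itself and named here after its values were seen, was at 6.59, 6.41 and 21.7 FPKM against 22.3, 22.4 and 21.3 FPKM. The log2 difference of Cdk1 was 1.08 ± 0.45 (SE, adjusted p = 0.25 by limma) with all libraries, 1.62 ± 0.06 (adjusted p = 1.4e-05) without untreated replicate 3 and 0.02 against that library alone. The phosphatases Cdc25b and Cdc25c, which activate CDK1, and the centrosome kinase Nek2 made up the rest, at 2.02, 2.70 and 2.10 times the mean of untreated replicates 1 and 2. Part of the value of Ccnb1 is uncertain, since a processed pseudogene, Ccnb1-ps, shares 99.2% of its letters over 1287 bases and others are nearly as close. Exons of Ccna2 also overlap those of Exosc9 on the other strand over 12.5% of its exonic length. Overlaps of like size on the other strand are those of Kif4 with Pdzd11 (15.1%), Ncapg with Lcorl (13.4%), Cdc25c with Gm3550 (12.7%) and Prc1 with Rccd1 (11.1%). Whether the libraries kept strand is not given in the sources used here.

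The Aurora kinases and the chromosomal passenger complex, which corrects faulty attachments and later guides the cleavage furrow, showed the highest median ratio of the 7 groups, 2.90 times. Aurka, the kinase of centrosomes and spindle poles, was at 5.49, 5.47 and 23.5 FPKM in the untreated libraries and at 22.7, 23.8 and 20.1 FPKM after iRFA. Incenp, the scaffold of the complex, was at 21.9, 20.8 and 62.9 FPKM against 57.1, 61.4 and 56.1 FPKM. Birc5 (survivin), which docks the complex on chromosomes, was at 8.01, 8.91 and 29.7 FPKM against 26.4, 28.6 and 24.5 FPKM. Untreated replicates 1 and 2 differed little from each other here, while untreated replicate 3 was above all iRFA libraries for Incenp and Birc5 and within their range for Aurka. Aurka had a log2 difference of 1.20 ± 0.54 (SE, adjusted p = 0.25 by limma) with all libraries and of 1.84 ± 0.08 (adjusted p = 3.33e-05) without untreated replicate 3. Aurkb, the kinase of the complex, and Cdca8 (borealin), another of its subunits, were 2.28 and 2.90 times the mean of untreated replicates 1 and 2.

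Among the 9 genes of the spindle checkpoint and anaphase, 8 were higher and 1 lower without untreated replicate 3, beside 33.9% and 30.3% of all tested genes, with a median ratio of 2.68 times over the group. Cdc20, the activator of the anaphase-promoting complex, was at 23.1, 21.8 and 66.5 FPKM in the untreated libraries and at 65.2, 62.2 and 58.3 FPKM after iRFA. Ube2c, the ubiquitin-conjugating enzyme that works with that complex, was at 9.06, 10.4 and 41.1 FPKM against 37.5, 38.1 and 32.9 FPKM. Bub1b (BubR1), a checkpoint protein that binds CDC20, was at 9.31, 10.7 and 28.1 FPKM against 28.5, 28.1 and 25.9 FPKM. Thus the activators of anaphase and the checkpoint that restrains them were high in the same 4 libraries. Exons of Ube2c overlap those of the muscle gene Tnnc2 on the other strand over 22.8% of its exonic length, and the part of that overlap in the value of Ube2c was not tested. The checkpoint kinases Bub1 and Ttk, the CDC20 inhibitor Mad2l1 and Espl1, which encodes separase, ran from 1.86 to 3.56 times the mean of untreated replicates 1 and 2.

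Bub3 and Pttg1, named after their values were seen, departed from this pattern in opposite ways. Bub3, which carries Bub1 and BubR1 to kinetochores, was at 11.4, 11.6 and 15.0 FPKM in the untreated libraries and at 18.0, 18.1 and 17.0 FPKM after iRFA. Its groups did not overlap, and it had the lowest unadjusted limma p of the members. The log2 difference of Bub3 was 0.46 ± 0.13 (SE, adjusted p = 0.25 by limma), 0.58 without untreated replicate 3 and 0.23 against that library alone. Pttg1, which encodes securin, the inhibitor of separase, was at 14.1, 15.0 and 7.85 FPKM against 8.19, 8.69 and 9.13 FPKM. It was the only member called lower without untreated replicate 3, with a log2 difference of -0.69 ± 0.07 (SE, adjusted p = 0.000474 by limma). With all libraries its log2 difference was -0.42 ± 0.24 (SE, adjusted p = 0.284). Securin and its partner Espl1 therefore ordered the libraries in opposite directions, Espl1 being at 2.96 and 3.49 FPKM in untreated replicates 1 and 2 and at 7.92 to 9.80 FPKM in the other 4 libraries.

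**Figure D4:**
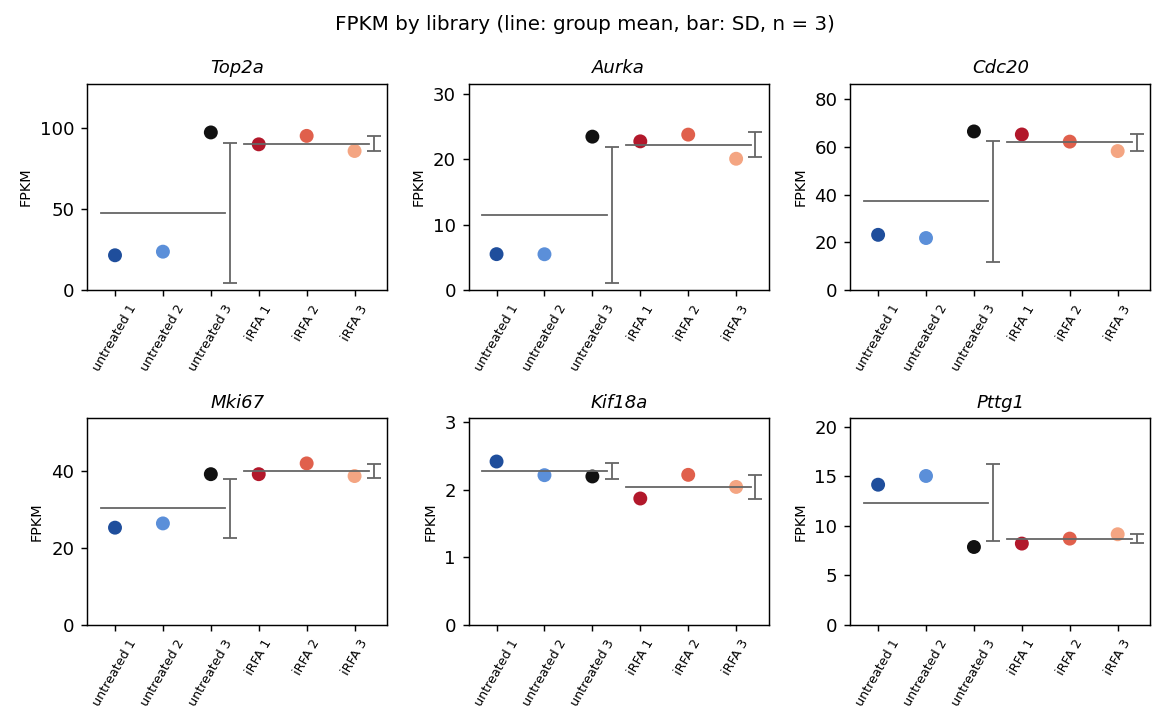
FPKM by library for 6 members, 1 point per library, on axes that start at 0, with a line at the mean of each group and a bar of 1 SD (n = 3). Top2a, Aurka, Cdc20 and Mki67 are low in untreated replicates 1 and 2 and high in the other 4 libraries, Kif18a stays between 1.87 and 2.41 FPKM, and Pttg1 is highest in untreated replicates 1 and 2.

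Centromere and kinetochore genes, 7 in all, had the lowest median ratio of the groups, 1.89 times, although 1 of them had the highest ratio of any member. Cenpe, a kinesin that brings chromosomes to the spindle equator, was that member, at 4.09 times the mean of untreated replicates 1 and 2, and measured 4.82, 4.70 and 21.3 FPKM in the untreated libraries and at 20.3, 19.7 and 18.4 FPKM after iRFA. Ndc80, of the complex that holds microtubules, was at 5.46, 6.48 and 20.4 FPKM against 19.2, 18.7 and 17.7 FPKM. Cenpa, the histone variant that marks centromeres, was at 5.71, 6.23 and 14.3 FPKM against 10.7, 11.8 and 11.3 FPKM. Of the members, Cenpa had the largest difference from untreated replicate 3 alone, a log2 difference of -0.31, which was not called. The partners of Ndc80 in its complex did not share its size of difference, with Nuf2 at 2.54 times, Spc24 at 1.65 times and Spc25 at 1.68 times against 3.11 times for Ndc80. The difference between these ratios was not tested, and transcripts with at least 95% identity to stretches of Ndc80 make its value uncertain. Cenpf, a kinetochore protein of late G2, was at 1.78 times.

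Spindle motors and TPX2 were less uniform, with a median ratio of 2.14 times over 6 members. Tpx2, which activates Aurora A on the spindle, was at 10.4, 9.11 and 35.1 FPKM in the untreated libraries and at 33.2, 33.7 and 31.4 FPKM after iRFA. Kif11 (Eg5), the kinesin that pushes the poles apart, was at 12.5, 14.9 and 28.3 FPKM against 24.5, 26.9 and 23.8 FPKM. Kif22, a chromosome arm kinesin, was at 7.98, 7.63 and 12.6 FPKM against 11.6, 13.0 and 11.5 FPKM. Kif15, which can help keep the spindle bipolar, and Kif2c (MCAK), which shortens microtubules at centromeres, were 2.70 and 2.44 times the mean of untreated replicates 1 and 2. Kif18a, which damps chromosome oscillations at the plus ends of microtubules and was named after its values were seen, did not follow them, with 2.41, 2.21 and 2.19 FPKM in the untreated libraries and 1.87, 2.22 and 2.04 FPKM after iRFA. All its libraries overlapped, and its log2 difference was -0.11 ± 0.11 (SE, adjusted p = 0.5 by limma) and -0.12 ± 0.09 without untreated replicate 3. Under quantile normalization its sign turned, to 0.11.

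Genes of the central spindle and cytokinesis numbered 8, all of them called higher without untreated replicate 3, as were 33.9% of all tested genes, with a median ratio of 2.42 times. Racgap1, which with the kinesin of Kif23 forms centralspindlin, was at 10.8, 11.1 and 24.8 FPKM in the untreated libraries and at 23.7, 24.7 and 21.7 FPKM after iRFA. Anln (anillin), the scaffold of the contractile ring, was at 7.30, 7.12 and 23.1 FPKM against 23.4, 24.6 and 21.2 FPKM. Kif20a, which carries the passenger complex to the midzone, was at 11.8, 10.8 and 19.9 FPKM against 21.2, 23.1 and 20.2 FPKM. For Kif20a the groups did not overlap, though the gap between untreated replicate 3 and the lowest iRFA library was small, and 29.3% of its exonic length overlaps Cdc23 on the other strand. Kif23, Ect2, which activates RhoA at the furrow, and Kif4 were 3.07, 2.71 and 2.69 times the mean of untreated replicates 1 and 2, while Prc1, which bundles midzone microtubules, and Kif20b were at 1.70 and 1.67 times. Ect2 varied most among the iRFA libraries, from 12.5 to 18.9 FPKM, a coefficient of variation of 20.8% against a median of 6.34% over the members.

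Condensin and chromosome structure, the last group of 7 members, held the gene with the largest log2 difference. Top2a, the topoisomerase that untangles sister chromatids (chromosome 11, 98992943 to 99024189 on GRCm38), was at 21.4, 23.6 and 97.2 FPKM in the untreated libraries and at 89.8, 95.03 and 85.7 FPKM after iRFA. Its means were 47.4 ± 43.1 FPKM (SD, n = 3) and 90.2 ± 4.67 FPKM (SD, n = 3), and its log2 difference was 1.27 ± 0.58 (SE, adjusted p = 0.25 by limma), or 1.95 ± 0.07 (adjusted p = 1.72e-05) without untreated replicate 3 and -0.11 against that library alone. Most of the error with all libraries thus lay between the untreated libraries. Smc4, a core subunit of condensin, was at 21.9, 23.6 and 58.8 FPKM against 55.5, 54.9 and 52.4 FPKM. Mki67, the Ki-67 protein that coats mitotic chromosomes and is the common marker of proliferation, was at 25.3, 26.4 and 39.3 FPKM against 39.3, 42.1 and 38.8 FPKM. Mki67 had a ratio of 1.55 times and thus stood near the lower end of the members. Smc2, the partner of Smc4 and named after its values were seen, was at 11.5, 11.9 and 25.7 FPKM against 26.7, 26.6 and 26.3 FPKM, without overlap of the groups. The condensin I subunits Ncapg and Ncaph were at 2.48 and 2.15 times and Ncapd2 at 1.30 times, the lowest ratio among the members called higher without untreated replicate 3.

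Replicates within each set of libraries differed little beside these ratios. Over the 50 members the difference between untreated replicates 1 and 2 had a median of 0.08 and a maximum of 0.24 on the log2 scale. Untreated replicate 3 lay within the range of the iRFA libraries for 20 members, beside 7115 of the 15560 tested genes. It lay above that range for 26 members, beside 28.6% of all tested genes, and below it for 4, beside 25.7%. Over the members its median ratio to the mean of untreated replicates 1 and 2 was 2.65 times, and that of the iRFA mean was 2.46 times.

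Related lists gave the setting of the members. Of 93 other mitotic genes, 86 had a positive log2 difference with all libraries (median 0.44, none called by limma), and without untreated replicate 3, 81 were higher and 5 lower (median 0.68), where 33.9% of all tested genes were called higher and 30.3% lower. The lower ones, named after their values were seen, were Cdc16, Anapc4 and Anapc5 of the anaphase-promoting complex, the spindle pole gene Numa1 and the cohesin gene Smc3. Fbxo5, which encodes an inhibitor of the anaphase-promoting complex, was at 5.66, 5.20 and 27.3 FPKM in the untreated libraries and at 23.9, 24.8 and 24.8 FPKM after iRFA. Cks1b, a CDK subunit, was at 30.6, 26.7 and 117 FPKM against 105, 114 and 95.02 FPKM. Plk4, the kinase of centriole duplication, and Rad21, a subunit of cohesin, had log2 differences of 1.82 and 0.52 without untreated replicate 3.

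The 14 G2/M gene regulators, the transcription factors and complex subunits of late cell cycle genes, had 11 positive differences (median 0.38), and without untreated replicate 3, 11 were higher and 1, Lin37 of the DREAM complex (named after its values were seen), was lower (median 0.71), against the same 33.9% and 30.3% of all tested genes. E2f8, a repressor of the E2F family, was at 2.23, 2.28 and 12.5 FPKM against 10.8, 13.3 and 10.5 FPKM, and E2f4, the main E2F of DREAM, at 17.6, 16.7 and 67.6 FPKM against 62.9, 67.8 and 56.8 FPKM. Both genes were low in untreated replicates 1 and 2 and high in the other 4 libraries. Tfdp1, a partner of the E2F proteins, had a log2 difference of 1.26 without untreated replicate 3.

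DNA replication genes, 45 in all, had 43 positive differences (median 0.49), with 40 higher and 0 lower without untreated replicate 3 (median 0.76, limma), again beside 33.9% and 30.3% of all tested genes. Rrm2, the regulated subunit of ribonucleotide reductase, was at 14.3, 15.9 and 78.5 FPKM against 68.9, 74.9 and 59.3 FPKM. Mcm3, of the replicative helicase, was at 13.8, 14.8 and 52.4 FPKM against 55.9, 58.4 and 47.4 FPKM, and Pcna, the sliding clamp, at 51.6, 50.2 and 85.4 FPKM against 97.9, 99.3 and 87.0 FPKM. These 3 genes were low in untreated replicates 1 and 2 and high in the other 4 libraries. The median of the list lay under that of the 50 members and above that of the other mitotic genes, and these differences were not tested.

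**Figure D5:**
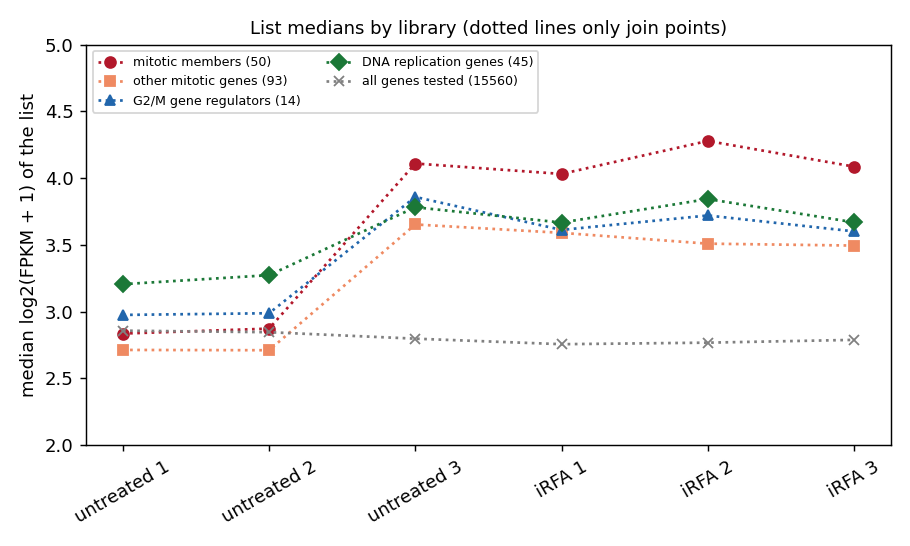
Median log2(FPKM + 1) of each gene list in each library, with the number of genes in brackets. The members (red) are at 2.83 and 2.87 in untreated replicates 1 and 2 and at 4.03 to 4.28 in the other 4 libraries, whereas the median of all tested genes lies between 2.76 and 2.86.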

How the data were processed

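Per the labels, the authors used FastQC on the reads, HISAT2 for alignment to GRCm38 and StringTie for the FPKM values they deposited. Versions are not given in the sources used here. The labels name Trizol for the extraction, the methods a total RNA purification kit. FPKM holds no counts, so depth is unknown, no counting interval is given and precision rests on the spread between libraries. The labels do not say whether the libraries of a group came from separate mice, so p-values measure only the spread between these samples, which may be technical. Groups were taken from the labels. After a log2(FPKM + 1) transformation, limma 3.58.1 (R 4.3.3) was fitted with a variance trend and no covariates to the 15560 genes that averaged 0.5 FPKM or more, the other 16550 not being tested. Tests were two-sided, p-values were adjusted by Benjamini-Hochberg over every tested gene, and the threshold was 0.05. The script was tested on simulated data that gave both groups the spread of the iRFA libraries. That simulation did not cover the wider spread of the untreated group.

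Values in every library are given for the 3 members of highest mean FPKM and the 1 of largest absolute log2 difference in each role, and other lists are named by their 2 highest and 2 most different genes. Ratios of further members were added after the values were seen. The members and lists were chosen with earlier results of these data known. GENCODE release 21 gave symbols, coordinates and exon overlaps, blastn 2.17.0 near-identical copies (at least 95% over 200 bases) and RefSeq (GRCm38.p6) promoters, searched on both strands. Alternatives were a pseudocount of 0.1, a filter at 1 FPKM or none, scaling of each library to 1000000 in all or by the median of ratios, quantile normalization, the skeletal muscle markers left out, no variance trend, the replicate number as a block, and libraries left out.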

Additional observations from a re-analysis of the deposited data

How the results depend on the processing

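Depth is unknown, and with 3 libraries a group the spread among the untreated libraries limited what could be detected. With all libraries, the other pseudocount, filters, scalings and the fit without a variance trend called no member. They kept the sign of all 60 genes checked, except Kif18a under quantile normalization (0.11). These 60 are the members and the genes of other lists named by rule. Genes of other lists named after their values were seen were not checked this way. The median of all genes moved between -0.05 and 0.09 and that of the members between 0.66 and 0.82. The deviations of same-numbered libraries from their group means correlated at -0.094, -0.105 and -0.23. These values cannot show whether the numbers 1 to 3 pair the libraries, because replicate 3 dominates the deviations of the untreated libraries. With the replicate block the members kept their median of 0.73, with none called (lowest adjusted p 0.339, limma).

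Leaving out each library in turn, the members called higher ranged from 0 to 48 and those called lower from 0 to 1, and all tested genes called from 0 to 5269 higher and from 0 to 4711 lower; the highest of each came without untreated replicate 3, and no other library left out gave a call among members. Members without overlap were 48 higher and 1 lower without untreated replicate 3, beside 41.0% and 36.5% of all tested genes. With any other library left out they were 3 to 7 higher and 0 to 1 lower. For those settings the share of all genes was not computed. The median log2 difference ranged from 0.52 to 1.11 for the members, 0.31 to 0.68 for the other mitotic genes, 0.27 to 0.71 for the G2/M gene regulators and 0.35 to 0.76 for the DNA replication genes.

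Without untreated replicates 1 and 2, the remaining untreated library was assumed to vary like the iRFA libraries. No member and 1 gene of all were called higher, 26 members lay below that library throughout, beside 28.6% of all tested genes, and the medians of the same lists were -0.083, -0.086, -0.11 and 0.011. Signs turned for 51 of the 60 genes checked, among them Pttg1 to 0.13. Of the genes of other lists named after their values were seen, Anapc4 and Lin37 turned, to 0.080 and 0.086, and the rest kept their sign. The log2 difference was -0.35 for Tfdp1, -0.31 for Cenpa, -0.27 for Nek2 and Nuf2, -0.22 for Rrm2, -0.21 for Cdc25b, -0.18 for Ube2c, -0.17 for Cenpf, Espl1 and Kif11, and -0.16 for Birc5, Plk1 and Cks1b. It was -0.15 for Fbxo5, -0.14 for Cdca8, -0.13 for Prc1, Ncaph, Ndc80 and Cenpe, -0.12 for Ncapg, -0.11 for E2f4, Smc4, E2f8, Incenp and Top2a, -0.10 for Ccna2 and Cdc20, -0.096 for Tpx2, and -0.092 for Kif4. It was -0.085 for Ncapd2, -0.083 for Racgap1 and Kif15, -0.079 for Aurka, -0.078 for Ttk, -0.065 for Mad2l1, -0.061 for Kif22, -0.057 for Cdc25c, and -0.056 for Kif2c. It was -0.052 for Kif20b, -0.051 for Ccnb1, -0.049 for Plk4 and Spc24, -0.042 for Aurkb, -0.041 for Ect2, -0.04 for Ccnb2, -0.039 for Bub1, and -0.030 for Bub1b. It was -0.028 for Rad21, -0.022 for Kif23, and -0.0055 for Anln.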
